A study of Mus musculus with 4 samples.

Results

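The genes described here are the matrix metalloproteinases (*Mmp*), the ADAMTS proteases (*Adamts*) and the tissue inhibitors of metalloproteinases (*Timp*). They were taken by gene symbol from the table of normalized counts, and 41 of its 24637 genes belonged to them, 18 *Mmp*, 19 *Adamts* and 4 *Timp* genes. Messenger RNA had been sequenced from 4 cultures of mouse embryonic stem cells (ESCs) differentiated towards cardiomyocytes. By the authors' methods, a pair of independent WT (Taf4+/+) lines and a pair of independent Taf4a-/- lines were used, which leaves 1 library per line. The sample titles give a replicate number and do not name the line. The lines came from blastocysts of crosses between mice carrying a *Taf4a* null allele, made by deleting internal exons, so the allele is lost in every cell of a mutant culture and not in the heart lineage alone. Cells were kept for 5 days as embryoid bodies in serum-containing medium and for 9 more days on gelatin-coated plates, which is day 9 in the sample labels. ESCs had been maintained on fibroblast feeders, and whether these were removed before the cardiac protocol is not given in the sources used here. RNA was taken from whole cultures, so fewer cells of a type and less RNA per cell cannot be told apart in any of the values below.

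MMPs are zinc-dependent endopeptidases that are made as inactive proenzymes and cleave collagens, laminins and other matrix proteins outside the cell. Some are secreted, others are anchored in the plasma membrane and activate the secreted ones there. ADAMTS proteases are secreted, carry thrombospondin type repeats that bind matrix, and cleave proteoglycans such as versican and aggrecan, process procollagens or act on fibrillin microfibrils. TIMPs bind the active site of MMPs and of some ADAMTS proteases. In the developing heart the cardiac jelly is rich in versican, and its turnover by ADAMTS proteases accompanies trabeculation and valve formation. Taf4 is a subunit of TFIID, the general transcription factor whose Tbp subunit binds the TATA box.

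Promoter sequences from RefSeq (build GRCm38.p6, 250 bases before to 50 after the annotated start) were found for 27 of the 41 genes, in 29 windows. The other 14 were not searched: *Mmp2*, *Mmp9*, *Mmp16*, *Mmp17*, *Mmp19*, *Adamts4*, *Adamts5*, *Adamts6*, *Adamts7*, *Adamts8*, *Adamts10*, *Adamts15*, *Adamts16* and *Adamts19*. Sequences are shown because a cluster of *Mmp* genes on chromosome 9 differed from the other genes with a window in 3 short motifs. The letters searched on both strands were TATAAA, the letters of a TATA box, TGANTCA, those of an AP-1 site, and GGGCGG, those of a GC box, anywhere in the window. Every one of the 5 genes of the *Mmp* cluster on chromosome 9 that had a window (*Mmp1a*, *Mmp10*, *Mmp12*, *Mmp13* and *Mmp20*) held TATAAA and TGANTCA together in a window, and none of their 6 windows held GGGCGG. No window among the other 23 held that pair, and 18 of the 23 held GGGCGG. Over all 32851 promoter windows, 1.54% held TATAAA and TGANTCA together, 13.6% held TATAAA, 7.81% held TGANTCA and 35.7% held GGGCGG. A match of letters is a description and not a bound site. The first base of TATAAA stood 28 bases before the annotated start in *Mmp1a*, 29 before it in *Mmp10* and 32 before it in *Adamts1*. In *Mmp13* it stood closer, 16 before the start. In *Mmp12* it stood at base 5 after the start, which is not where a TATA box lies. A match somewhere in the window is therefore not by itself a TATA box. The stretches below run 5′ to 3′ from 120 bases before to 10 bases after the annotated start, with matches in capitals, for 3 genes of the cluster, for the abundant protease *Mmp14*, for the inhibitor *Timp2* and for *Adamts1*, the only one of these 6 with both TATAAA and GGGCGG.
*Mmp12* (chr9:7347254-7347383, plus strand): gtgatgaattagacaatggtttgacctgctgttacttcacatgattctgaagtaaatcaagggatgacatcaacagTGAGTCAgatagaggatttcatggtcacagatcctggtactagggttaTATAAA
*Mmp13* (chr9:7272394-7272523, plus strand): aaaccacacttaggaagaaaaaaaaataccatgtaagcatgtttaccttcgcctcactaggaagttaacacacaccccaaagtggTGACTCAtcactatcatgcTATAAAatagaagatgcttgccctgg
*Mmp1a* (chr9:7464021-7464150, plus strand): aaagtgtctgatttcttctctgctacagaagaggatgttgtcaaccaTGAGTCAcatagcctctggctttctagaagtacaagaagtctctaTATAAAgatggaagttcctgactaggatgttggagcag
*Mmp14* (chr14:54431478-54431607, plus strand): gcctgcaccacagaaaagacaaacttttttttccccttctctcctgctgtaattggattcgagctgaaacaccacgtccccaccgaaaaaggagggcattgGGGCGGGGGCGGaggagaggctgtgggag
*Timp2* (chr11:118355402-118355531, minus strand): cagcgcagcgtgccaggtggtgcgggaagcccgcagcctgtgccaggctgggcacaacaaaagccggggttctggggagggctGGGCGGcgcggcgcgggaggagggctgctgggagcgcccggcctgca
*Adamts1* (chr16:85803104-85803233, minus strand): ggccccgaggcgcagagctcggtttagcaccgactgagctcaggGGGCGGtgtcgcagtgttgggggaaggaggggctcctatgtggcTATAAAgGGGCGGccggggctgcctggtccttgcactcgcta
*Mmp12* has a second annotated start with none of these letters in the same stretch. Of the 5 cluster genes only *Mmp12* reached a mean of 10 normalized counts over the 4 libraries, the level required for a test.

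Counts on genes came to between 21732746 and 27733034 reads per library. *Taf4a*, the targeted gene, reached 889 and 678 normalized counts in WT and 1722 and 1799 in the libraries labelled Taf4a-/-, and it was called higher there (log2 fold change 1.18 ± 0.16, SE, limma, adjusted p = 0.00569). A count over the whole gene also takes reads from exons outside the deletion and does not check it, and the genotype is given below as the label of the library. Of all tested genes, 17.3% were called lower in the libraries labelled Taf4a-/- and 11.3% higher, and the marker counts that follow stand beside these shares. The cardiomyocyte markers fixed for the check of the cell type were lower in 10 of 10 cases in the libraries labelled Taf4a-/-, though none of these markers was at 0 in any library. Fibroblast markers had a summed value of 432804 and 599220.2 normalized counts in the WT libraries and 50118 and 62461 in the others, with 8 of 10 called lower. Most of that sum came from *Col1a1*, *Col1a2* and *Col3a1*. *Pdgfra*, in the same list, overlapped between genotypes, at 7098 and 5451 against 5012 and 6043. *Pdgfrb* had 3465 and 2528 against 1981 and 2118, and the remaining fibroblast markers fell further than these receptor genes. Macrophage markers summed to 10546 and 12382 against 179 and 211, with 9 of 9 called lower and *C1qa* at 0 in both libraries labelled Taf4a-/-. Visceral endoderm and liver markers (6 of 6 lower) had sums of 59828 and 50979 against 397 and 356. All 8 pluripotency markers were called higher, and their sums were 3957 and 1500.4 in WT against 14331 and 16074. Of the smooth muscle markers 2 of 5 were called lower, and of the endothelial markers 1 of 7. The part of these cell types in the results below was not tested.

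Most matrix protease genes had fewer counts in the libraries labelled Taf4a-/-. Of the 41 genes, 34 had a mean of at least 10 normalized counts and were tested with limma on log2(normalized count + 1) together with all other genes, 16926 in all. At an adjusted p-value under 0.05, 18 of the 34 were lower, where 17.3% of all tested genes were lower, and 2 of the 34 were higher, where 11.3% of all were higher. Their median log2 fold change was -0.93, beside -0.01 for all tested genes. For 27 of the 34, both libraries labelled Taf4a-/- lay under both WT libraries, which held for 36.6% of all tested genes. The opposite order was seen for 3 (34.5% of all tested genes), and 4 overlapped. By family, 8 of 13 tested *Mmp* genes, 9 of 18 *Adamts* genes and 1 of 3 *Timp* genes were called lower, and both genes called higher were *Mmp* genes. Without a trend in the variance model, 10 were lower (10.3% of all genes) and 1 higher (5.06%), and with a change of at least 2-fold required, 16 were lower (11.4%) and 1 higher (4.41%). Quantile normalization left 15 lower (14.5%) and 2 higher (15.8%), voom on the recovered reads 15 (16.3%) and 2 (10.7%), and a block for the replicate number 20 (15.7%) and 2 (9.07%). Since only 2 libraries were compared with 2, an exact permutation test of a single gene could not go under 0.05, and the p-values rest on the spread that limma shares across genes.

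**Figure D1:**
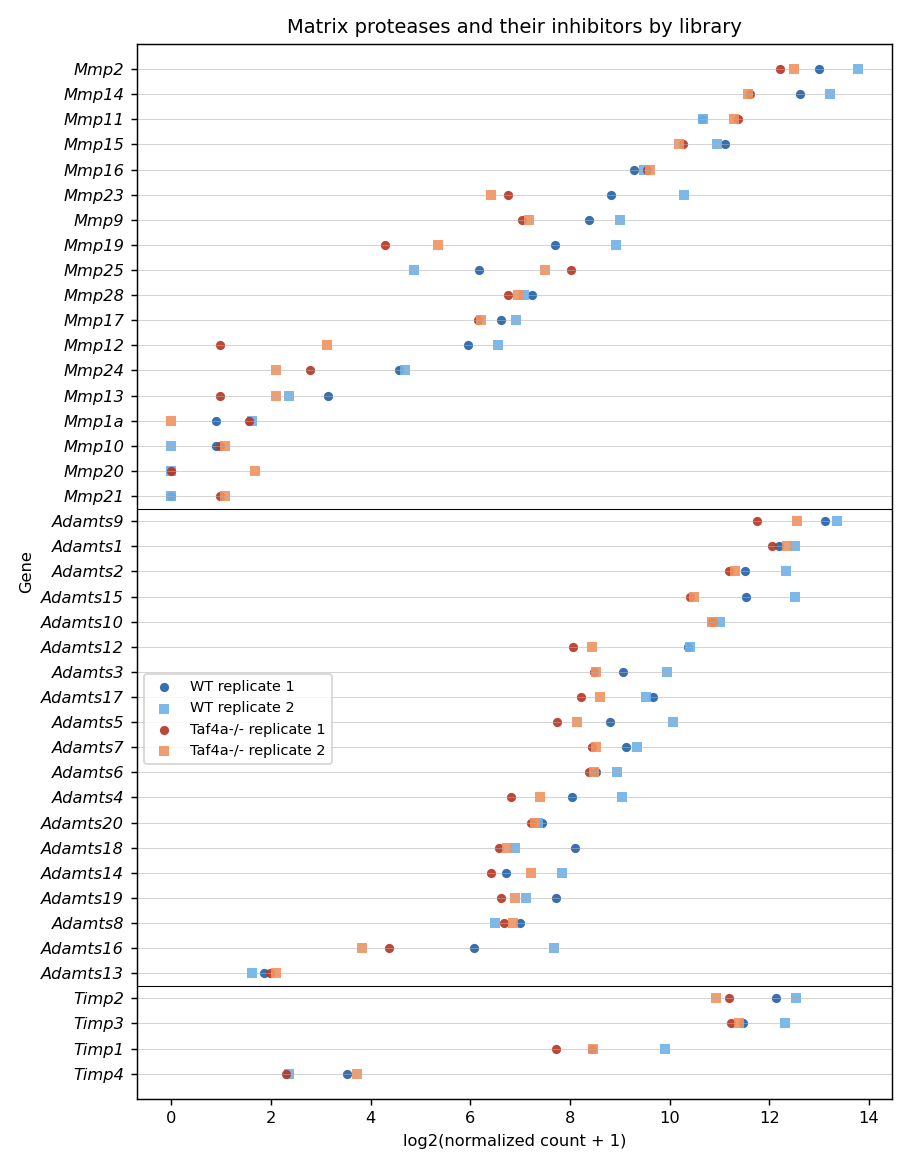
Normalized counts of the 41 genes in each of the 4 libraries, on a log2(normalized count + 1) axis, with 1 row per gene in the *Mmp*, *Adamts* and *Timp* families ordered by mean. *Mmp2* and *Mmp14* are the most abundant *Mmp* genes in every library, and 7 genes lie under a mean of 10 normalized counts.

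**Figure D2:**
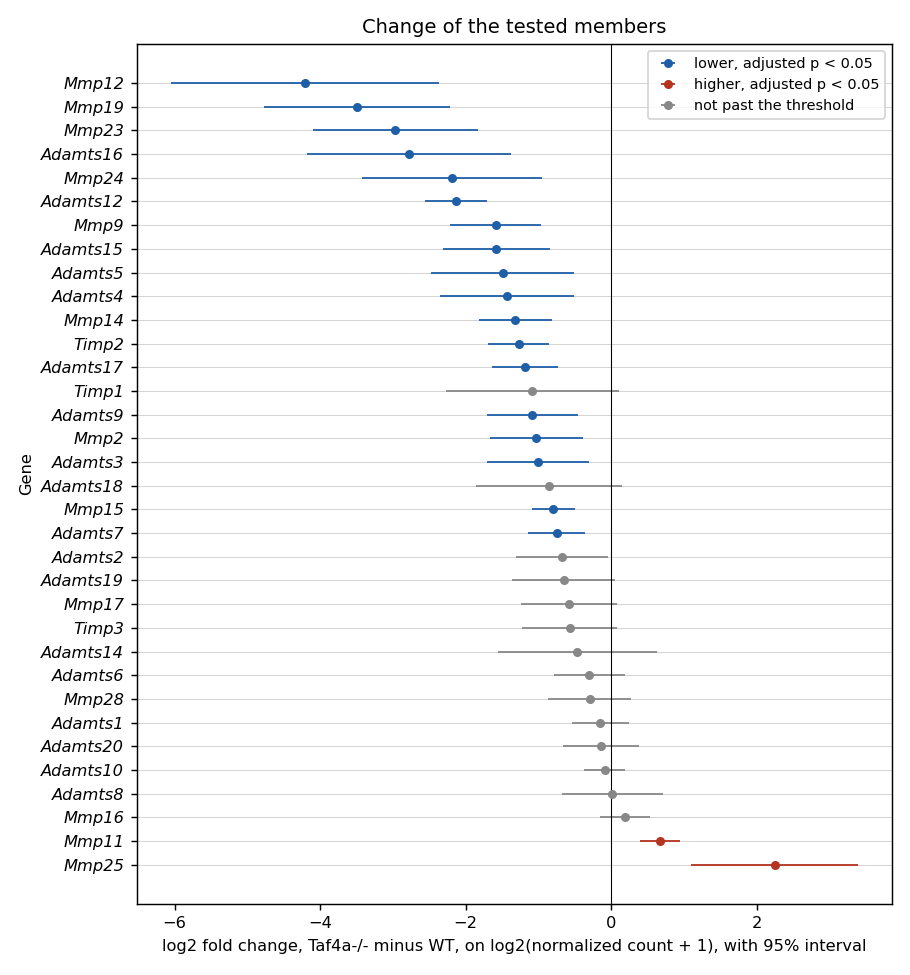
Log2 fold change of the 34 tested genes, libraries labelled Taf4a-/- minus WT, on the log2(normalized count + 1) scale, where points are limma estimates, bars are 95% intervals and colours give the call at an adjusted p-value under 0.05. The estimates run from -4.21 for *Mmp12* to 2.24 for *Mmp25*, with 18 genes called lower and 2 higher.

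Both gelatinases fell. *Mmp2* (ENSMUSG00000031740, chr8:95351227-95377316 of NCBIM37), which degrades denatured and basement membrane collagens, stood at 8137 in WT replicate 1 and 14059 in WT replicate 2, in normalized counts, and at 4745 and 5793 in the pair labelled Taf4a-/-. The genotypes did not overlap, but the WT libraries stood further apart than the other pair. The log2 fold change of *Mmp2* was -1.03 ± 0.26 (SE, limma, adjusted p = 0.0341). Without a trend in the variance model *Mmp2* was not called (limma, adjusted p = 0.105). *Mmp9*, the other gelatinase and a product of macrophages and osteoclasts among other cells, went from 334 and 515 to 131 and 144 normalized counts, a log2 fold change of -1.59 ± 0.26 (SE, adjusted p = 0.00929). Per length, *Mmp2* was the highest of the 41 genes in both genotypes, at mean levels of 146 in WT and 72.6 in the others (normalized counts per kb of exon and per 1000000 counts in the library, called the length-scaled level below), and *Mmp9* reached 4.80 and 1.63 on the same scale. The call of *Mmp2* was lost without WT replicate 2 or without the library labelled Taf4a-/- replicate 1, and that of *Mmp9* was kept with each library left out.

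The membrane-type enzymes, 6 in number, went both ways, with 3 called lower and 1 higher. *Mmp14* (ENSMUSG00000000957, chr14:55050441-55060095 of NCBIM37), the main cell-surface activator of pro-*Mmp2*, fell from 6229.9 and 9510.4 normalized counts in WT to 3141 and 3033. The pair labelled Taf4a-/- was close together and well under both WT libraries, with a log2 fold change of -1.32 ± 0.20 (SE, limma, adjusted p = 0.00816). *Mmp15*, a second transmembrane member that can also activate pro-*Mmp2*, had 2194 and 1986 against 1239 and 1162, a smaller change of -0.80 ± 0.12 (SE, adjusted p = 0.00777) with little spread in either genotype. *Mmp24* was rare, with 26 and 24 reads in WT and 6 and 3 in the others, and was called lower (log2 fold change -2.19, adjusted p = 0.0255). Over 13.6% of its exon length it overlaps *BC029722* on the other strand, whose counts were 224 and 272 against 129 and 92.9, and the library kit does not mark strand. *Mmp16* had 623 and 715 against 746 and 776, and *Mmp17*, which is held by a lipid anchor, had 97.3 and 119 against 70.5 and 73.0. Neither passed the test, with 95% intervals of the log2 fold change from -0.16 to 0.54 and from -1.24 to 0.07.

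*Mmp25* and *Mmp11* were the genes that rose. *Mmp25* (ENSMUSG00000023903, chr17:23766425-23782236 of NCBIM37), a lipid-anchored membrane-type enzyme also called leukolysin and known from neutrophils, had 71.0 and 28.1 normalized counts in WT against 259 and 179. All values of the libraries labelled Taf4a-/- were above WT, with a log2 fold change of 2.24 ± 0.47 (SE, limma, adjusted p = 0.0197). The 6 mast cell and neutrophil markers summed to between 3.92 and 11.1 normalized counts in a library, and none of them reached the level for a test. The call did not hold without WT replicate 2, where the log2 fold change was 1.59 (adjusted p = 0.0624), or without a trend in the variance model (adjusted p = 0.0614). *Mmp11* (stromelysin 3), which is activated inside the cell by furin and is typical of mesenchyme undergoing remodelling, had 1600.0 and 1635 normalized counts in WT and 2656 and 2497 in the others. The pairs were tight, and the rise was small, 0.67 on the log2 scale ± 0.11 (SE, adjusted p = 0.0101). Per length, *Mmp11* stood in place 8 among the 41 genes in WT (mean length-scaled level 24.6) and in place 3 in the libraries labelled Taf4a-/- (mean 40.8). *Furin* itself was called lower, at 7639 and 6524 against 4792 and 4762 normalized counts.

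The largest falls were those of 3 other *Mmp* genes. *Mmp12*, the macrophage elastase, had 61.4 and 93.5 normalized counts in WT and 0.979 and 7.74 in the libraries labelled Taf4a-/-, which are 1 and 7 reads. Its log2 fold change was -4.21 ± 0.76 (SE, limma, adjusted p = 0.0127), and the macrophage markers moved in the same direction, with a median of -8.44. The size of this fall rests on those few reads, and it was -3.13 without the library labelled Taf4a-/- replicate 1, -5.28 without replicate 2 and -2.62 with a pseudocount of 10. *Mmp19*, a secreted enzyme that cleaves basement membrane proteins, had 208 and 485 against 18.6 and 39.8, a log2 fold change of -3.49 ± 0.52 (SE, adjusted p = 0.00733). It shares 23.1% of its exon length with *1110012D08Rik* on the other strand, whose counts, 504 and 563 against 559 and 616, did not go down with it. *Mmp23*, a membrane-bound enzyme that lacks the haemopexin domain of most MMPs, had 449 and 1249 in WT and 107 and 84.1 in the others. Its WT libraries differed 2.78-fold, less than the 8.90-fold difference between the genotype means, and the log2 fold change was -2.97 ± 0.47 (SE, adjusted p = 0.00836). *Mmp28* (epilysin) had 149.9 and 134 against 108 and 123 and did not pass the test (95% interval from -0.88 to 0.28).

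The ADAMTS proteoglycanases, which cleave versican, aggrecan and related proteoglycans, were called lower in 4 of 7 cases and higher in none. *Adamts15* (ENSMUSG00000033453, chr9:30706740-30730037 of NCBIM37) had 2950.1 and 5844 normalized counts in WT against 1349.9 and 1427, with a log2 fold change of -1.58 ± 0.30 (SE, limma, adjusted p = 0.0149). Its neighbour *Adamts8*, which starts 20110 bases further on the opposite strand, had 127 and 89.4 against 101 and 115, so that the genotypes overlapped (95% interval from -0.68 to 0.71). A second pair of neighbours also had unlike values. *Adamts5* (aggrecanase 2) fell from 446 and 1066 to 211 and 282 normalized counts, a log2 fold change of -1.49 ± 0.41 (SE, adjusted p = 0.0397), and *Adamts1*, 55057 bases away on the same strand of chromosome 16, had 4699 and 5827 against 4265 and 5210.3. For *Adamts1*, a versican-cleaving enzyme whose promoter is printed above, the values overlapped and the 95% interval ran from -0.54 to 0.24. The difference in response within either pair was not tested. *Adamts9*, an abundant versican-cleaving enzyme needed for heart and vessel development, fell from 8928 and 10476 to 3466 and 6005 normalized counts (log2 fold change -1.08 ± 0.26, SE, adjusted p = 0.0280), and *Adamts4* (aggrecanase 1) from 264 and 524 to 112 and 168 (log2 fold change -1.43, adjusted p = 0.0360). *Adamts20* had 172 and 163 against 148 and 156, and the 95% interval of its log2 fold change ran from -0.66 to 0.38. Among the substrates, *Vcan* (versican) was called lower, at 21969 and 20980.4 against 12559 and 13503 normalized counts, and *Acan* (aggrecan) was called higher from a low level, 7.01 and 14.5 against 81.2 and 59.7.

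*Adamts12* had the lowest adjusted p-value of the 34 genes. This enzyme, which like *Adamts7* cleaves cartilage oligomeric matrix protein, had 1312 and 1354 normalized counts in WT and 265 and 346 in the libraries labelled Taf4a-/-, a log2 fold change of -2.13 ± 0.17 (SE, limma, adjusted p = 0.00141). *Adamts7* had 555 and 653 against 348 and 365 and changed less (-0.75 ± 0.16, SE, adjusted p = 0.0212). Among the procollagen N-proteinases, which trim fibrillar procollagens, *Adamts3* fell from 537 and 991 to 355 and 368 normalized counts (log2 fold change -1.01 ± 0.29, SE, adjusted p = 0.0458). *Adamts2*, the most abundant of the 3, had 2923 and 5178 against 2320.0 and 2555, without overlap but not past the threshold (adjusted p = 0.101), and *Adamts14* had 104 and 228 against 84.2 and 147 (95% interval from -1.56 to 0.63). *Adamts16* fell from 66.6 and 205 to 19.6 and 13.3 (log2 fold change -2.78 ± 0.58, SE, adjusted p = 0.0188), and *Adamts17* from 815 and 730.4 to 297 and 386 (log2 fold change -1.19 ± 0.18, SE, adjusted p = 0.00816). *Adamts10*, which acts on fibrillin microfibrils, had nearly level values of 1878 and 2053 against 1844 and 1837, with a 95% interval of the log2 fold change from -0.37 to 0.19. *Adamts6*, *Adamts18* and *Adamts19* had log2 fold changes of -0.30, -0.86 and -0.65 and did not pass the test. *Adamts18* was high in WT replicate 1 alone, with 275 normalized counts against 118 in WT replicate 2 and 94.0 and 105 in the others.

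Of the inhibitors, *Timp2* was called lower. *Timp2* (ENSMUSG00000017466, chr11:118162383-118217054 of NCBIM37), which blocks MMPs and also bridges pro-*Mmp2* to *Mmp14* at the cell surface, fell from 4516 and 5920.5 to 2339.6 and 1954 normalized counts. The genotypes were far apart, with a log2 fold change of -1.27 ± 0.17 (SE, limma, adjusted p = 0.00533). *Timp3*, the inhibitor that binds to matrix and blocks ADAMTS proteases as well, had 2817 and 5076 against 2414 and 2689 (log2 fold change -0.57, adjusted p = 0.158). *Syn3* on the other strand shares 21.3% of the exon length of *Timp3*, but had only 21.0 and 13.5 against 23.5 and 28.8 normalized counts. For *Timp3*, WT replicate 2 was high and the other 3 were close together. Its log2 fold change was -0.99 and past the threshold without WT replicate 1 (adjusted p = 0.0164), and -0.14 without WT replicate 2 (adjusted p = 0.385). *Timp1* had 349 and 953 against 209 and 353, so that WT replicate 1 lay within the range of the libraries labelled Taf4a-/- (log2 fold change -1.09, adjusted p = 0.145). Its 95% interval reached from -2.28 to 0.11, and a fall as large as that of *Timp2* lay inside it. Without WT replicate 1 the value was -1.81 and passed the threshold (adjusted p = 0.0385), and without WT replicate 2 it was -0.36 (adjusted p = 0.534). *Timp4*, the inhibitor known from adult heart, had between 4 and 12 reads in each library and was not tested.

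Levels per length were summed within each family to set the proteases beside their inhibitors. *Mmp* genes together reached a summed length-scaled level of 276 and 407 in WT and 184 and 190.3 in the libraries labelled Taf4a-/-. *Timp* genes reached 78.4 and 126 against 47.8 and 51.5, and *Adamts* genes 147 and 192 against 96.3 and 116. All sums were thus lower in both libraries labelled Taf4a-/-. The ratio of the summed *Mmp* to the summed *Timp* level was 3.52 and 3.22 in WT and 3.85 and 3.70 in the others, and that of *Adamts* to *Timp* was 1.88 and 1.52 against 2.01 and 2.25. These ratios lay without overlap in the order of the genotypes, but 2 values against 2 allow no test under 0.05 by permutation. Their order rests in large part on single abundant genes and does not describe a family as a whole. *Mmp11*, which rose, added length-scaled levels of 24.9 and 24.3 in WT against 42.3 and 39.3 to the *Mmp* sum. *Adamts1*, which was not called, added 36.5 and 43.1 against 33.9 and 40.9 to the *Adamts* sum. *Mmp2* and *Mmp14* made up 75.7% and 80.0% of the *Mmp* sum in WT and 63.5% and 67.2% in the libraries labelled Taf4a-/-, where *Mmp11* took 23.0% and 20.6% against 9.01% and 5.96% in WT. Within the inhibitors, *Timp2* gave 60.8% and 47.2% of the sum in WT and 52.9% and 40.5% in the others.

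**Figure D3:**
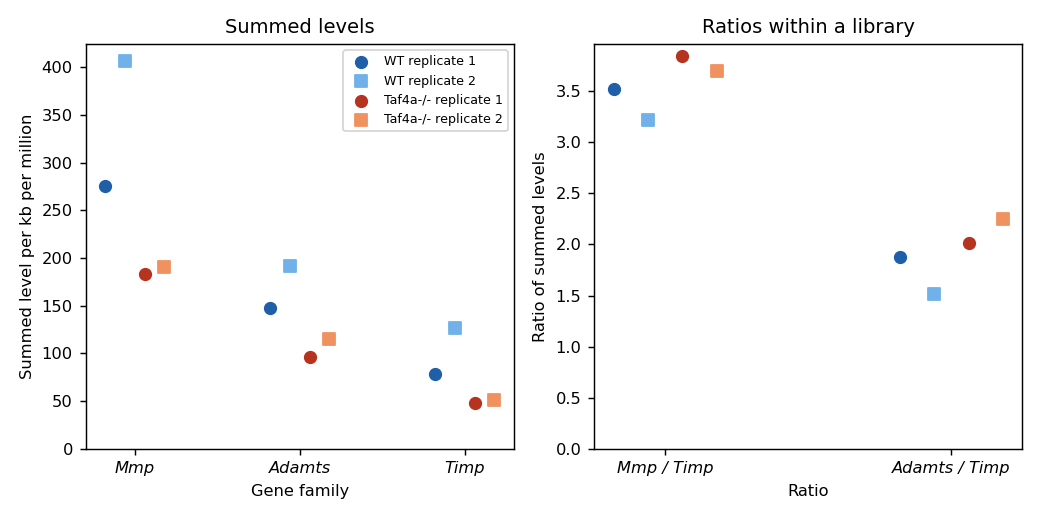
Left, summed levels of each family in normalized counts per kb of exon and per 1000000 counts, and right, ratios of the *Mmp* and *Adamts* sums to the *Timp* sum in the same library, with 1 point per library. *Mmp* sums reach 276 and 407 in WT and 184 and 190.3 in the libraries labelled Taf4a-/-, where the ratio to the *Timp* sum is 3.85 and 3.70 against 3.52 and 3.22. *Mmp11*, which rose, is part of the *Mmp* sum.

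The WT lines differed from each other in these genes. WT replicate 2 was higher than replicate 1 for 26 of the 34 tested genes, with a median log2 difference of 0.35, where 51.8% of all tested genes were higher and their median was 0.02. For the 18 genes called lower, the difference was above 0 in 16, with a median of 0.62. Between the libraries labelled Taf4a-/-, the median difference of replicate 2 minus 1 over the 34 genes was 0.14, with 25 genes above 0, where 50.6% of all tested genes were above 0 and their median was 0.0028. Replicate 2 was thus also the higher one for most of these genes in that pair. Fibroblast markers summed to 599220.2 normalized counts in WT replicate 2 against 432804 in replicate 1, and smooth muscle markers to 54805 against 29763. Macrophage markers were also higher, at 12382 against 10546. Pluripotency markers were lower, at 1500.4 against 3957. So were the sums of endothelial (7572 against 11478), cardiomyocyte (27406 against 30179) and visceral endoderm and liver markers (50979 against 59828). The cardiomyocyte list was split, and its largest fall was that of *Myh7* (3443 against 8300). *Myh6* (6706 against 4763), *Tnnt2* (3281 against 2730), *Myl7*, *Ryr2*, *Tnni3* and *Ttn* were higher in WT replicate 2, and the rest were lower. In the visceral endoderm and liver list, *Alb* (1797 against 799) and *Ttr* (5625 against 5300) were higher and the rest lower. Within the fibroblast list, *Pdgfra* (5451 against 7098) and *Pdgfrb* (2528 against 3465) were lower in replicate 2, and the other markers were higher. Without WT replicate 2, 8 of the 34 genes were called lower, where 7.22% of all genes were, with a median log2 fold change of -0.75. Without WT replicate 1, 18 were called lower, where 17.9% of all genes were, with a median of -1.10. Leaving out a library labelled Taf4a-/- gave 12 lower (11.7% of all genes) and 1 higher (3.69%) without replicate 1, and 15 lower (11.3%) and 1 higher (3.69%) without replicate 2. For WT, 2 were called higher without replicate 1 (14.6% of all genes) and 1 without replicate 2 (4.4%). Calls that held with each library left out in turn were those of 7 genes, *Adamts12*, *Adamts15*, *Mmp9*, *Mmp14*, *Mmp15*, *Mmp23* and *Timp2*. The calls of *Adamts9*, *Mmp12* and *Mmp24* were lost without WT replicate 1, and those of *Adamts3*, *Adamts4*, *Adamts5*, *Adamts7*, *Adamts9*, *Adamts16*, *Adamts17*, *Mmp2*, *Mmp12*, *Mmp19*, *Mmp24* and *Mmp25* without WT replicate 2. Leaving out the library labelled Taf4a-/- replicate 1 ended the calls of *Adamts3*, *Adamts4*, *Adamts5*, *Adamts7*, *Adamts9*, *Mmp2* and *Mmp11*, and leaving out replicate 2 those of *Adamts3*, *Adamts7*, *Mmp11* and *Mmp24*. Calls were gained by *Adamts2* (log2 fold change -1.09, adjusted p = 0.0157), *Timp1* and *Timp3* without WT replicate 1, and by *Adamts18* (-1.46, adjusted p = 0.0479) without WT replicate 2. With WT replicate 1 or replicate 2 left out, the log2 fold change was -3.59 or -1.98 for *Adamts16*, -2.12 or -0.87 for *Adamts5*, -4.10 or -2.88 for *Mmp19*, -3.71 or -2.23 for *Mmp23* and 2.90 or 1.59 for *Mmp25*, the called genes that moved most with the choice of WT library. All 20 called genes kept their direction in these fits.

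**Figure D4:**
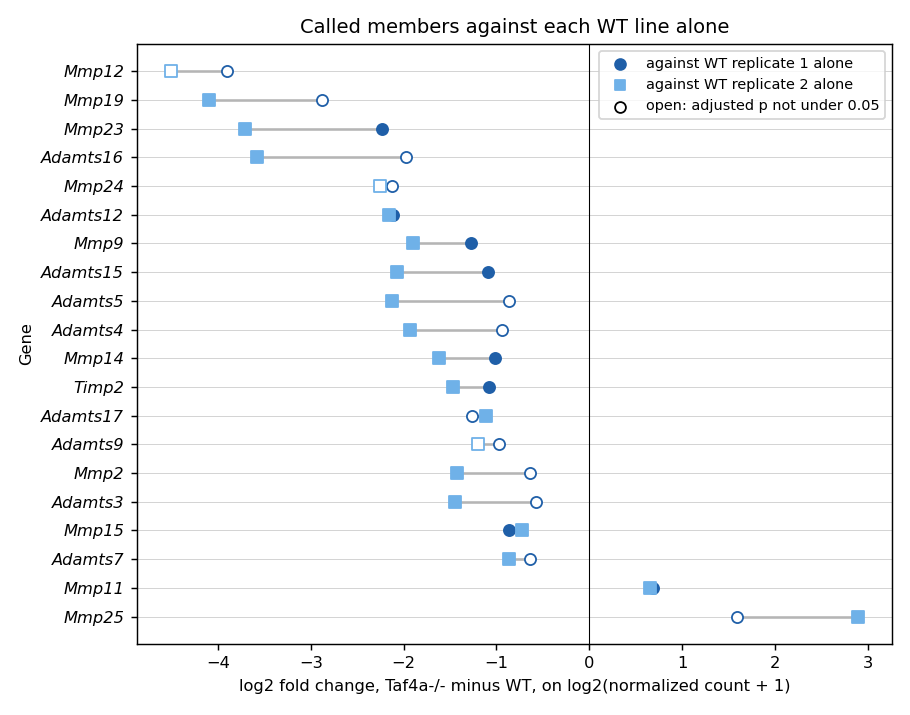
Log2 fold change of the 20 called genes on the log2(normalized count + 1) scale when the libraries labelled Taf4a-/- are set against WT replicate 1 alone (circles) or WT replicate 2 alone (squares), with open symbols where the adjusted p-value was not under 0.05. Against replicate 1 alone, 12 of the 20 symbols are open, and against replicate 2 alone, 3 are, while no gene crosses 0.

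The 7 genes under the level for a test were rare in every library. *Mmp13* (collagenase 3), which cleaves fibrillar collagen, had 9 and 4 reads in WT and 1 and 3 in the libraries labelled Taf4a-/-. *Adamts13*, the protease of von Willebrand factor, had 2 or 3 reads in each library. *Mmp1a* (interstitial collagenase) and *Mmp10* (stromelysin 2) had at most 2 reads, and their reads may be shared with close paralogues. *Mmp20* (enamelysin), which acts in tooth enamel, had 2 reads in 1 library and 0 in the other 3, and *Mmp21* had 1 read in each library labelled Taf4a-/- and 0 in WT. A count of 0 allows up to 3 reads. *Mmp1b*, *Mmp3*, *Mmp7*, *Mmp8* and *Mmp27* were not found by symbol among the genes with normalized counts, and so were not analysed.

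Other genes of matrix proteolysis were read from a list of 45 genes that are in none of the 3 families. Of the 42 tested, 17 were called lower and 2 higher, so 19 in either direction, where 28.6% of all tested genes were called, and the median log2 fold change was -0.55. In the plasmin system, the urokinase gene *Plau* had 716 and 886 normalized counts in WT against 230.0 and 262, and its receptor gene *Plaur* was also called lower. *Plg*, the plasminogen gene, had 169 and 134 against 3.92 and 3.32, and *Serpinf2*, which encodes the plasmin inhibitor, had 568 and 364 against 5.87 and 8.85. Both are typical of liver, and the visceral endoderm and liver markers moved in the same direction, with a median log2 fold change of -6.87. *Pcolce*, the enhancer of procollagen C-proteinase, fell from 4593 and 7061 to 1277 and 1238 normalized counts (log2 fold change -2.18 ± 0.21, SE, limma, adjusted p = 0.00222), whereas the proteinase gene *Bmp1* had 3299 and 4714 against 4715 and 3993 and did not pass the test. Of the ADAMTS-like genes, which encode relatives without a protease domain, *Adamtsl1* had 1494 and 2214 against 280.0 and 313, *Adamtsl3* had 72.8 and 53.0 against 2.94 and 4.42, and *Adamtsl5* had 144 and 305 against 61.7 and 70.8, all called lower. None of the 4 tested genes of other protease inhibitors was called by limma. *Reck*, which encodes a membrane-anchored MMP inhibitor, had 2615 and 2105 against 2826 and 3211 normalized counts (log2 fold change 0.36, adjusted p = 0.119).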

How the data were processed

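RNA-seq libraries of day 9 cardiac cultures, 2 WT and 2 labelled Taf4a-/-, were analysed. The authors mapped reads to mm9/NCBI37 with TopHat 1.3.3 and deposited normalized counts, that is reads per gene divided by a size factor per library from DESeq; their processing notes also name CASAVA 1.8 and HTSeq 0.5.3p1. The annotation release and the counting mode are not given in the sources used here. All values (tolerance 0.02) were whole multiples of the value of 1 read, so reads could be recovered; they are not marked by molecule, so a floor of 3 reads covers counting error only. Genes with a mean of at least 10 went into limma 3.58.1 (R 4.3.3, eBayes with trend) as log2(value + 1), a scale that understates changes of low genes, with Benjamini-Hochberg adjustment over all genes. The test was tried on simulated data. Exon lengths and coordinates came from the annotation of NCBIM37, where all 24637 identifiers were found. Figures used matplotlib 3.10.9.

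The genes and lists were chosen with earlier results of these data known. Values in every library are given for called genes, the *Timp* genes, *Mmp2*, *Mmp9*, *Mmp14* and the 3 highest per length, and for the 8 largest called changes in the list of other genes; further genes were added after their values were seen. The sample titles give a replicate number only, and the independent lines are named in the authors' methods. The p-values measure the spread between these libraries, in which line, culture and differentiation run cannot be told apart. The alternatives were other pseudocounts, filters, scalings, a variance model, a fold requirement, a replicate block and leaving out each library, with limma's voom added after the data were seen.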

Additional observations from a re-analysis of the deposited data

How the results depend on the processing

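The 18 genes lower and 2 higher, their median log2 fold change of -0.93 and the 19 called genes of the related list were recomputed under 14 alternatives. Without a variance trend, 10 were lower and 1 higher, and 11 related genes were called. Over all 16926 tested genes, 2597 were called there against 4834 in the main fit. The calls of *Adamts3*, *Adamts4*, *Adamts5*, *Adamts7*, *Adamts9*, *Adamts15*, *Adamts16*, *Mmp2* and *Mmp25* were lost. With a 2-fold change required, 1 was higher and 12 related genes were called, where 2683 of all genes were. The number of calls over all genes also moved when a replicate was left out. Changes in the related count are thus not particular to that list. With one replicate left out, the genes lower ran from 8 to 18, those higher from 1 to 2, the median from -1.10 to -0.75 and the related genes called from 11 to 25; the lone library is then assumed to vary like the others. *Adamts1*, which was not called, ran from -0.31 to 0.0046 with one replicate left out, the latter without WT replicate 2. With the replicate number as a block, 20 genes were lower, 2 were higher and 17 related genes were called, where 4193 of all genes were. All 20 calls were kept, and those of *Adamts2* (limma, adjusted p = 0.0497) and *Timp1* (adjusted p = 0.0229) were gained. The correlation of same-numbered deviations was 0.012 over all tested genes. That value cannot show whether cultures of the same number were handled together, so pairing remains unknown. Quantile normalization, which moved the median of all genes from -0.01 to 0.11, gave 15 lower and 2 higher, with a median of -0.81, and voom gave 15 and 2. Under both, *Adamts3*, *Adamts4* and *Adamts5* were not called. The share of higher among calls over all genes went from 1906 of 4834 to 2676 of 5124 with quantile normalization. Of the 20 called genes, 5 kept their call under every alternative in which they were tested. Counts of all genes called lower were 1741 with no variance trend and 1222 without WT replicate 2. The planned edgeR and DESeq2 tests and TMM factors were not run. Depth limits the 7 untested genes, which had at most 12 reads in a library.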
